A study of Homo sapiens with 8 samples.

Results

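Immediate early genes of the AP-1, EGR, IER and MYC groups were followed in HEK293T cells, an immortalised human embryonic kidney line, that lacked or carried PCIF1. Of the 10 genes looked for by symbol (FOS, FOSL1, FOSL2, JUN, JUNB, JUND, EGR1, IER2, IER5 and MYC), 9 had a value, out of 8801 genes with a value in all. FOSL1 was not analysed here. The groups were Pcif1-KO and WT cells given siPCF11, and Pcif1-KO and WT cells given siScram, with 1 library each. PCIF1 writes m6Am, the methyl mark on an adenosine that stands first after the mRNA cap, and PCF11 is a factor of cleavage, polyadenylation and transcription termination. All 4 groups had received 5 pmol of an siRNA and were taken 48 h later for nuclear RNA, which was sequenced from the 3′ end after labelling with s4U, a uridine analogue built into new transcripts. The labels name no clone, so the ratio of genotypes is also a ratio of 2 cell populations, and the loss of PCIF1 cannot be told apart from any other difference between them.

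Immediate early genes are switched on within minutes by growth factors, serum or stress, from promoters whose transcription factors are already present, and they are then shut off again, with mRNAs that decay fast. JUN proteins pair with each other or with FOS proteins to form AP-1, which binds DNA through a basic leucine zipper, whereas FOS proteins need a JUN partner. EGR1 is a zinc finger activator that follows the same signals, IER2 and IER5 are nuclear regulators of the immediate early response, and MYC pairs with MAX to raise the output of growth genes. In cultured cells these genes are classical readouts of signalling through MAP kinases.

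The values are the authors' log2 ratios of WT over Pcif1-KO, so they run against the usual mutant-over-control direction, and a negative ratio means more signal in Pcif1-KO cells. The files used here hold no levels, counts or errors, so neither the depth nor the strength of expression is known. Reads from the 3′ end also follow where a transcript is cleaved, and the part of that in these ratios was not tested. In bulk libraries, a change in the number of cells with a transcript and a change of transcript per cell cannot be told apart. PCIF1 was not analysed here, so the knockout could not be checked on its target. For PCF11 the authors' deposited tables give log2 ratios of -0.45 with siPCF11 and -0.44 with siScram, which do not check the knockdown, because WT and Pcif1-KO cells of 1 ratio had the same siRNA. Of markers of other cell types, 2 of 4 epithelial genes had a listed ratio, and 0 of 4 each for fibroblasts, blood and endothelium.

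Because m6Am can form only where a transcript begins with A, the annotated start of each member is shown beside its class. The authors placed JUN, JUND and IER2 in their m6Am class and the other 6 members (FOS, FOSL2, JUNB, EGR1, IER5 and MYC) outside it. RefSeq windows on GRCh38.p14 were found for 8 members, and the lines below give the 40 bases before the start in lower case and the start base in a capital, 5′ to 3′ on the strand of the gene. JUN and JUND lie on the minus strand and the other 6 on the plus strand.
JUN chr1:58784047-58784087: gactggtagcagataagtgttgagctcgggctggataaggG
JUND chr19:18281622-18281662: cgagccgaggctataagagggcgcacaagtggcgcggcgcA
IER2 chr19:13150371-13150411: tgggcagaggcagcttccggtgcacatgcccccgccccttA
FOS chr14:75278788-75278828: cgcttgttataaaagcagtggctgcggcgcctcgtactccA
FOSL2 chr2:28392818-28392858: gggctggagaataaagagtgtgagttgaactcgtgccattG
JUNB chr19:12791446-12791486: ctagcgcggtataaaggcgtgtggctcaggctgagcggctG
EGR1 chr5:138465439-138465479: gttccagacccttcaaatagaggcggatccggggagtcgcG
IER5 chr1:181088660-181088700: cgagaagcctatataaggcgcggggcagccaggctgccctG
JUND and IER2, both in the m6Am class, start with A in this annotation, while JUN, also in that class, starts with G. Outside the class, FOSL2, JUNB, EGR1 and IER5 start with G and FOS with A. Over all listed genes with a single annotated start, A stood first in 50.6% of 2640 m6Am genes and in 38.7% of 2563 non-m6Am genes, so the annotated start often differs from the class. Within the short genes these shares were 48.3% of 1328 and 36.6% of 865. An annotated start need not be the start used in these cells.

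The windows from 250 bases before to 50 bases after the start were also searched on both strands for motifs that these factors are known for. EGR1 held 2 CArG boxes, the motif of serum response factor, from -105 to -96 and from -83 to -74, and a CArG box was found in 1.29% of all 35116 windows. JUN held a match to TGACNTCA, a sequence of the AP-1 and CREB type, from -67 to -60, and JUND one from -200 to -193, against 7.72% of all windows. These stretches are shown with the matches in capitals.
EGR1 chr5:138465354-138465425: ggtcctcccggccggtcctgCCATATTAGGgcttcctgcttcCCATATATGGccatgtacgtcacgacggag
JUN chr1:58784087-58784134: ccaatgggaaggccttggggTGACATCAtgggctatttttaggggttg
JUND chr19:18281795-18281842: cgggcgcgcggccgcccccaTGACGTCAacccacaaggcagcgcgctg
TATAAA stood from -33 to -28 in FOS and from -31 to -26 in JUNB, against 11.5% of all windows. EGR1 also had a match to GCGNGGGCG, the motif of EGR1 itself, from -198 to -190 (9.43% of all windows), and FOSL2 one to TGANTCA, the AP-1 motif, from 5 to 11 (7.71% of all windows). A position is counted from 1 at the start base, with negative numbers upstream, and a match is no proof of binding. Sequence outside these windows was not searched, so a member with no match here may hold the motif elsewhere.

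The members did not move as a block between the genotypes. IER2, JUN, EGR1 and IER5 had ratios below 0 with both siRNAs, which is higher signal in Pcif1-KO cells, and FOSL2, JUND, JUNB and FOS had ratios above 0 with both. MYC was below 0 with siPCF11 and above 0 with siScram. A ratio of the same sign with both siRNAs was thus seen for 8 of 9 members, against 61.7% of the 7591 genes with both ratios. With siScram JUNB and JUND were so near 0 that their signs say little: 97.5% and 92.3% of genes were farther from 0. With siPCF11 4 of 9 members were above 0, and with siScram 5 of 9, against 48.9% of all genes with either siRNA. The median of the members was -0.10 with siPCF11 and 0.0098 with siScram, beside -0.010 and -0.0096 over all listed genes.

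**Figure D1:**
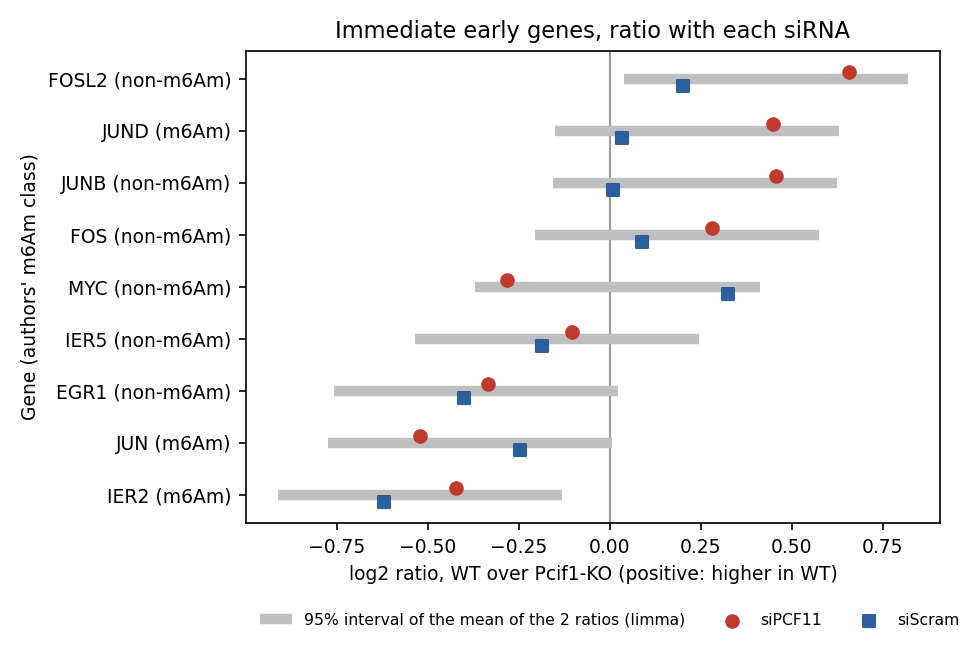
Log2 ratio of WT over Pcif1-KO (x axis) for each of the 9 members (rows, with the authors' m6Am class), with siPCF11 as circles and siScram as squares. Grey bars are the 95% interval of the mean of the 2 ratios from limma. The bars of FOSL2 and IER2 lie off 0, but neither gene passes after adjustment, and the circle and the square of MYC lie on opposite sides of 0.

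Few members were far from 0. A log2 ratio of at least 0.5, or 1.41-fold, was taken as far from 0. With siPCF11, 1 of 9 members (FOSL2) was at or above 0.5, against 8.81% of 8499 genes, and 1 of 9 (JUN) was at or below -0.5, against 8.70%. With siScram, 0 of 9 members were at or above 0.5, against 6.11% of 7893 genes, and 1 of 9 (IER2) was at or below -0.5, against 6.98%. The members' counts are each within 1 gene of what these shares give for 9 genes. With 1 library per group no test was possible within 1 siRNA. Over both siRNAs the 2 ratios of each gene were tested with limma against a mean of 0, and 0 of 9 members passed at an adjusted p under 0.05, against 5.49% of the 7591 genes. At an unadjusted p under 0.05 there were 2 of 9 (IER2 and FOSL2), against 17.7% of all genes. The limma SE was 0.20 for the mean of 2 ratios, and the smallest mean that passed in any gene was 0.60 from 0, so smaller differences were not detectable in this design.

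Of the JUN genes, which carry no introns, JUN (ENSG00000177606.6, chromosome 1, 58780791 to 58784047, 3.26 kb) went apart from its relatives JUNB and JUND in sign. Both relatives were near 0 with siScram, so there the sign says little. JUN had log2 ratios of -0.52 with siPCF11 and -0.25 with siScram in the authors' deposited tables. With siPCF11 7.82% of genes were lower than JUN, and with siScram 23.2%. The mean of -0.38 (95% interval -0.78 to 0.0059, limma adjusted p = 0.29 over all genes) had the same sign in both library pairs and corresponds to 1.31-fold more in Pcif1-KO cells. JUN is the AP-1 subunit that binds its own promoter in many cell types, and it is in the m6Am class. The listed genes on either side of JUN are MYSM1, a histone H2A deubiquitinase, and HOOK1, a microtubule linker. MYSM1 had -0.37 with siPCF11 and 0.11 with siScram in the authors' deposited tables. HOOK1 had -0.58 with siPCF11 and 0.15 with siScram in the authors' deposited tables, so both neighbours shared the sign of JUN with siPCF11 and not with siScram.

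JUNB (ENSG00000171223.5, chromosome 19, 12791486 to 12793315, 1.83 kb) had log2 ratios of 0.46 with siPCF11 and 0.0098 with siScram in the authors' deposited tables. JUND (ENSG00000130522.5, chromosome 19, 18279694 to 18281622, 1.93 kb) had 0.45 with siPCF11 and 0.032 with siScram in the authors' deposited tables. With siPCF11 JUNB was above 89.5% of genes and JUND above 89.1%, and both stood in the middle with siScram, above 52.4% and 55.0% of genes. JUNB often restrains growth driven by JUN, and JUND is the member made at a steady level in resting cells. Their limma means were 0.23 (95% interval -0.16 to 0.62, adjusted p = 0.58) for JUNB and 0.24 (-0.15 to 0.63, adjusted p = 0.57) for JUND. The 2 genes are near each other in both ratios although JUND is in the m6Am class and JUNB is not.

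JUNB, JUND and IER2 all lie on chromosome 19, whose genes had a median of 0.11 over 588 genes with siPCF11 and of -0.050 over 580 with siScram. On this chromosome 12.8% of genes were at or above 0.5 with siPCF11, against 3.62% with siScram. After the median of the other genes within a 10 Mb window around each gene was taken off, JUNB was at 0.41 with siPCF11 and 0.084 with siScram, and JUND at 0.36 with siPCF11 and 0.053 with siScram. The local medians taken off with siPCF11 were 0.047 for JUNB and 0.087 for JUND. Beside JUNB, HOOK2, a microtubule linker, had 0.25 with siPCF11, the sign of JUNB, in the authors' deposited tables and no value with siScram. On its other side PRDX2, a peroxide-removing enzyme, had -0.14 with siPCF11 and -0.33 with siScram in the authors' deposited tables. LSM4, a spliceosome and decay factor beside JUND, had 0.28 with siPCF11 and 0.29 with siScram in the authors' deposited tables. MPV17L2, a mitochondrial protein gene on the other side of JUND, had -0.068 with siPCF11 and -0.26 with siScram in the authors' deposited tables. The neighbours of JUNB and JUND thus lay on both sides of 0 with siPCF11.

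Of the FOS genes, FOSL2 was the only member in the authors' long class and had the highest ratio of all members with siPCF11. FOSL2 (ENSG00000075426.11, chromosome 2, 28392858 to 28417317, 24.5 kb), which encodes the longer-lived AP-1 subunit FRA2, had log2 ratios of 0.66 with siPCF11 and 0.20 with siScram in the authors' deposited tables. It was above 95.7% of genes with siPCF11 and above 74.3% with siScram. Its mean was 0.43 (95% interval 0.039 to 0.82, 1.35-fold more in WT cells), and the limma p was 0.031 unadjusted and 0.22 adjusted over all genes. FOSL2 was non-m6Am. BABAM2, a DNA repair complex gene beside it, had 0.39 with siPCF11 and -0.067 with siScram in the authors' deposited tables. PPP1CB, a phosphatase catalytic subunit gene on the other side, had -0.087 with siPCF11 and 0.26 with siScram in the authors' deposited tables.

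FOS (ENSG00000170345.9, chromosome 14, 75278828 to 75282230, 3.40 kb), the prototype of the class and the least stable of the AP-1 subunits, had log2 ratios of 0.28 with siPCF11 and 0.088 with siScram in the authors' deposited tables. It was nearer to the middle than FOSL2, above 78.5% of genes with siPCF11 and above 62.1% with siScram. The limma mean was 0.18 (95% interval -0.21 to 0.57, adjusted p = 0.69). JDP2, a basic leucine zipper repressor of AP-1 whose gene centre lies 170 kb from that of FOS, had ratios of -0.0058 with siPCF11 and -0.65 with siScram in the authors' deposited tables. On the other side TMED10, a vesicle transport receptor, had 0.16 with siPCF11 and -0.018 with siScram in the authors' deposited tables.

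EGR1 had the smallest difference between its 2 ratios of any member, and both were below 0. EGR1 (ENSG00000120738.7, chromosome 5, 138465479 to 138469303, 3.83 kb) had log2 ratios of -0.34 with siPCF11 and -0.40 with siScram in the authors' deposited tables. The 2 ratios differ by 0.064, and 86.9% of genes differed by more between the siRNAs. With siPCF11 17.9% of genes were lower, and with siScram 11.8%. The mean was -0.37 (95% interval -0.76 to 0.023, 1.29-fold more in Pcif1-KO cells, limma adjusted p = 0.33). On one side KDM3B, a histone demethylase, had 0.16 with siPCF11 and -0.085 with siScram in the authors' deposited tables. On the other side ETF1, the translation release factor, had -0.29 with siPCF11 and -0.11 with siScram in the authors' deposited tables, so EGR1 was the lowest of the 3 with each siRNA.

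IER2 had the mean farthest from 0. IER2 (ENSG00000160888.6, chromosome 19, 13150411 to 13154911, 4.50 kb) had log2 ratios of -0.42 with siPCF11 and -0.62 with siScram in the authors' deposited tables. With siScram 3.66% of genes were lower, and with siPCF11 12.5%. The mean of -0.52 (95% interval -0.91 to -0.13) corresponds to 1.44-fold more in Pcif1-KO cells, with a limma p of 0.0088 unadjusted and 0.11 adjusted over all genes, so it did not pass. Across the 4 other ways of centring or fitting the adjusted p was between 0.085 and 0.14. STX10, a syntaxin of vesicle traffic that adjoins IER2, was near 0, at 0.0053 with siPCF11 and -0.045 with siScram in the authors' deposited tables. On its other side YJU2B, a splicing factor relative, had 0.53 with siPCF11 and 0.64 with siScram in the authors' deposited tables, the opposite sign to IER2. IER2 and JUNB lie in much the same window of chromosome 19 and had opposite signs, -0.48 for IER2 and 0.41 for JUNB with siPCF11 after the local median was taken off.

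The 3 genes with the pair of ratios nearest to that of IER2, by Euclidean distance over the 2 ratios among all genes with both, were ZFAND3, CD59 and OSR2. Their distances were 0.014, 0.027 and 0.029 on the log2 scale. They lie on chromosomes 6, 11 and 8, and with only 2 values a gene such a likeness is weak. After window centring IER2 was at -0.48 with siPCF11 and -0.55 with siScram. ZFAND3 then stood at -0.48 and -0.64, OSR2 at -0.31 and -0.58, and CD59 at -0.015 and -0.45. CD59 was thus no longer near IER2 with siPCF11.

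IER5 (ENSG00000162783.10, chromosome 1, 181088700 to 181092900, 4.20 kb), which acts on heat shock factor and on growth control, had log2 ratios of -0.10 with siPCF11 and -0.19 with siScram in the authors' deposited tables. Its region stood above 0: the other genes of its 10 Mb window had medians of 0.15 with siPCF11 and 0.21 with siScram. With these taken off, IER5 was at -0.26 with siPCF11 and -0.40 with siScram, which is the largest shift by centring of any member. The limma mean was -0.15 (95% interval -0.54 to 0.24, adjusted p = 0.77), and -0.33 after window centring with an adjusted p of 0.41. Its listed neighbour STX6, a syntaxin, had 0.12 with siPCF11 and 0.26 with siScram in the authors' deposited tables. GLUL, the glutamine synthetase gene on the other side, had -0.19 with siPCF11 and 0.50 with siScram in the authors' deposited tables.

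**Figure D2:**
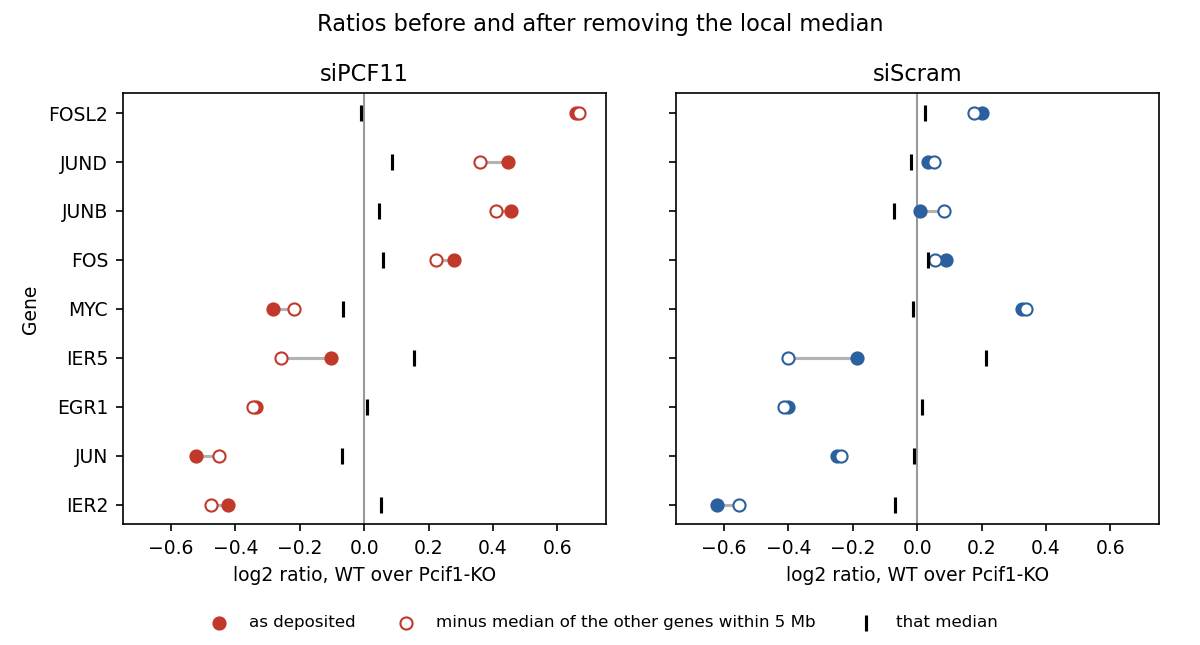
Ratios of the 9 members (rows) before (filled) and after (open) the median of the other genes in the 10 Mb window was taken off, with siPCF11 on the left and siScram on the right. The short black lines are these medians, on the same log2 axis. IER5 moves most, to -0.26 with siPCF11 and -0.40 with siScram, and no member changes sign.

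MYC was the 1 member whose sign differed between the siRNAs. MYC (ENSG00000136997.17, chromosome 8, 127735434 to 127742951, 7.52 kb) had log2 ratios of -0.28 with siPCF11 and 0.32 with siScram in the authors' deposited tables. The mean was 0.021 (95% interval -0.37 to 0.41, adjusted p = 0.97). The siPCF11 minus siScram difference was -0.61, and 12.9% of genes differed by more in either direction. The 2 listed genes that flank MYC are far away, with centres 1184 kb and 2189 kb from it. Of these, CYRIB, a regulator of actin, had -0.43 with siPCF11 and 0.78 with siScram in the authors' deposited tables, the same signs as MYC. LRATD2 on the other side had 2.11 with siPCF11 and 1.42 with siScram in the authors' deposited tables. The medians of the other genes in the window of MYC were -0.065 with siPCF11 over 22 genes and -0.013 with siScram over 20.

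**Figure D3:**
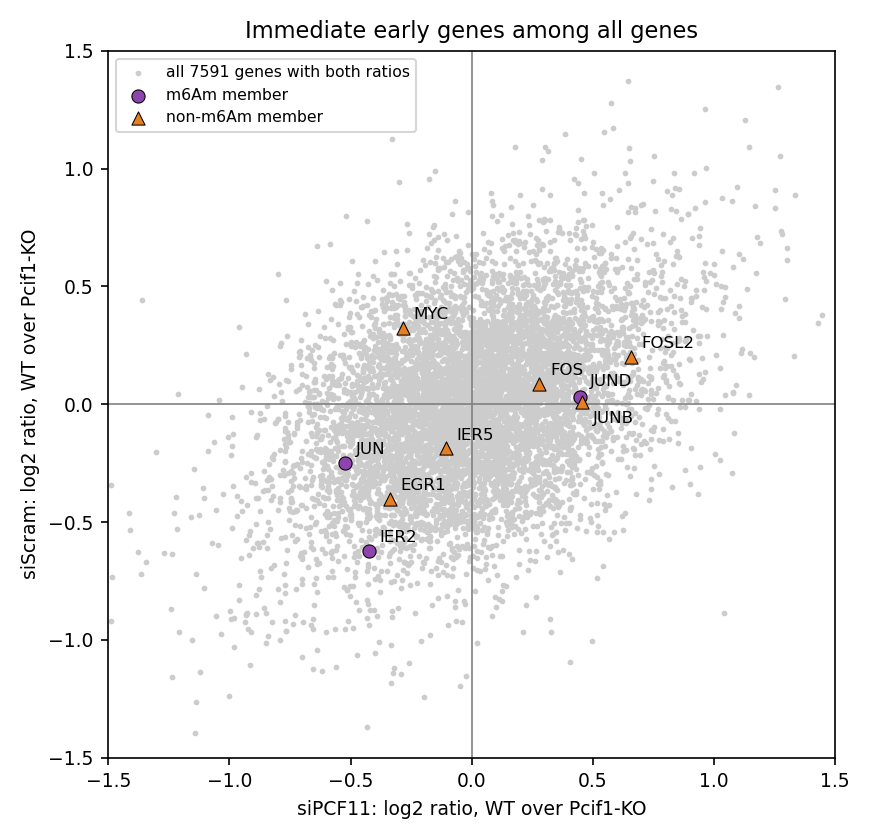
Ratio of WT over Pcif1-KO with siPCF11 (x axis) against the ratio with siScram (y axis), both on the log2 scale, for all 7591 genes with both ratios (grey) and the 9 members (circles for m6Am, triangles for non-m6Am). Axes end at 1.5 from 0, which leaves out 29 genes, none of them a member. The members lie inside the cloud, FOSL2 farthest right at 0.66 and IER2 lowest at -0.62.

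Seen as the change with siPCF11, meaning the siPCF11 ratio minus the siScram ratio, 7 of 9 members were above 0, against 50.8% of 7591 genes, and 2 (JUN and MYC) below. Only MYC changed by 0.5 or more, 1 of 9 members, against 20.8% of 7591 genes. FOSL2, JUNB and JUND had differences of 0.45, 0.45 and 0.42, and FOS and IER2 of 0.19 and 0.20. IER5 and EGR1 had differences of 0.083 and 0.064, and JUN of -0.27. Each is a single difference between single library pairs, so no test was made.

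By class, the 3 m6Am members had siPCF11 ratios between -0.52 and 0.45 and the 6 non-m6Am members between -0.34 and 0.66. With siScram the m6Am members lay between -0.62 and 0.032 and the non-m6Am members between -0.40 and 0.32. The classes overlap with both siRNAs. Short genes in the m6Am class had medians of 0.039 with siPCF11 and -0.026 with siScram over all listed genes, with middle 50% of genes from -0.22 to 0.29 and from -0.25 to 0.20. IER2 lay below the lower quartile with both siRNAs, and JUN lay below it with siPCF11 and within 0.01 of it with siScram. JUND lay above the upper quartile with siPCF11 and between the quartiles with siScram. For short genes outside the m6Am class the middle 50% ran from -0.25 to 0.26 with siPCF11 and from -0.27 to 0.21 with siScram. EGR1 lay below that range with both siRNAs, and MYC below it with siPCF11 and above it with siScram. FOS and JUNB lay above the range with siPCF11 and inside it with siScram. IER5 lay inside with both, and FOSL2 is a long gene. Length could not be set against the ratio within the members, since 8 of 9 were short.

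Genes around the members were looked at by lists. Those that share the AP-1 dimer interface or bind like it (FOSB, ATF, BATF, JDP2 and MAF genes, the large MAF included) had 11 of 13 genes listed. Their median was 0.12 with siPCF11 and 0.031 with siScram, with 3 of 11 genes at or above 0.5 and 0 of 11 at or below -0.5 with siPCF11, against 8.81% and 8.70% of all genes. With siScram these were 2 of 11 and 1 of 11, against 6.11% and 6.98%. MAFF, a small MAF protein without an activation domain, was the 1 of 11 that passed in limma, against 5.49% of all genes, and was higher in WT cells, with a mean of 0.68 (95% interval 0.29 to 1.07, adjusted p = 0.018). MAFF had 0.85 with siPCF11 and 0.51 with siScram in the authors' deposited tables. Its adjusted p was 0.063 after window centring, so the call did not hold there. JDP2 had the lowest mean of the list, -0.33 (adjusted p = 0.40).

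Of the EGR relatives and the NAB proteins, which bind EGR1 and repress its activity, 5 of 6 were listed, with medians of 0.20 with siPCF11 and 0.51 with siScram. At or above 0.5 were 2 of 5 with siPCF11 and 3 of 5 with siScram, against 8.81% and 6.11% of all genes, and 0 of 5 were at or below -0.5 with either siRNA, against 8.70% and 6.98%. Those at or above 0.5 were NAB1 and EGR3 with siPCF11, and NAB1, NAB2 and the gene WT1 with siScram. EGR3 had 0.70 with siPCF11 and 0.11 with siScram in the authors' deposited tables. EGR4 had -0.43 with siPCF11 and -0.022 with siScram in the authors' deposited tables. NAB1 was the 1 of 5 that passed, against 5.49% of all genes. It was higher in WT cells, with a mean of 0.61 (limma adjusted p = 0.044), and its adjusted p was 0.059 after window centring. NAB1 had 0.71 with siPCF11 and 0.51 with siScram in the authors' deposited tables. EGR4 had the lowest mean of the list, -0.23 (adjusted p = 0.60). EGR1 itself had ratios of the opposite sign to those of NAB1 with both siRNAs, and a link between the 2 genes was not tested.

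Other immediate early genes had 48 of 52 listed, with medians of -0.13 with siPCF11 and -0.033 with siScram. With siPCF11 4 of 46 were at or above 0.5 and 8 of 46 at or below -0.5, against 8.81% and 8.70% of all genes. With siScram these were 4 of 46 and 4 of 46, against 6.11% and 6.98%. In limma 3 of 44 were higher and 4 of 44 lower in WT cells, against 2.67% and 2.82% of all genes. Higher in WT were DUSP2, a nuclear MAP kinase phosphatase, with a mean of 0.91 (adjusted p = 0.00045), ARC, a synaptic plasticity gene, with 0.89 (adjusted p = 0.00066), and NR4A1, an orphan nuclear receptor, with 0.86 (adjusted p = 0.0012). Higher in Pcif1-KO cells were CCN1, a matricellular growth signal, with a mean of -1.05 (adjusted p = 2.04e-05), GADD45G, a stress and growth arrest gene, with -0.73 (adjusted p = 0.0085), TRIB1, a pseudokinase, with -0.65 (adjusted p = 0.026), and TOB2, an antiproliferative deadenylase partner, with -0.61 (adjusted p = 0.042). TOB2 did not pass after window centring (adjusted p = 0.068), while the other 6 did.

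CCN1 had -1.24 with siPCF11 and -0.87 with siScram in the authors' deposited tables, the lowest mean of any gene in these lists and 1 that exceeds that of every member in size. DUSP2 had 0.84 with siPCF11 and 0.98 with siScram in the authors' deposited tables. NR4A1 had 0.81 with siPCF11 and 0.90 with siScram in the authors' deposited tables. ARC had 1.43 with siPCF11 and 0.35 with siScram in the authors' deposited tables, where GADD45G had -0.32 with siPCF11 and -1.14 with siScram. For ARC and GADD45G 1 siRNA gave most of the mean.

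**Figure D4:**
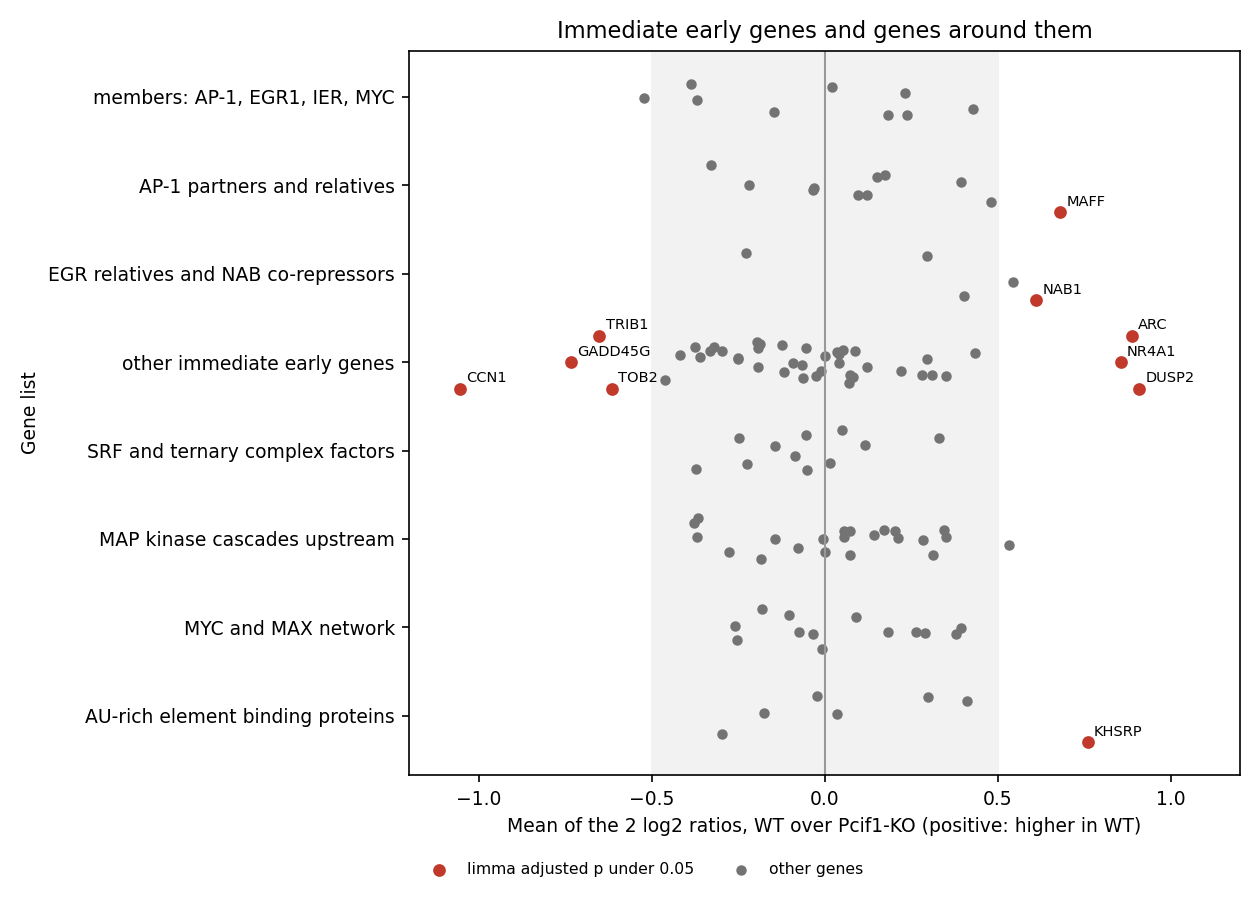
Mean of the 2 log2 ratios of WT over Pcif1-KO (x axis) for every gene with both ratios among the members and 7 related lists (rows, with points spread vertically to separate them), red where limma gave an adjusted p under 0.05. The shaded band marks means under 0.5 from 0. Red points are in the immediate early list (7 genes) and in 3 further lists (MAFF, NAB1 and KHSRP), and the members have none.

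Upstream of the members, serum response factor, its partners and CREB-type factors with their coactivators had 12 of 12 genes listed. Their medians were -0.037 with siPCF11 and -0.11 with siScram, and 0 of 11 passed in limma, against 5.49% of all genes. ELK4, a ternary complex factor, had the highest mean, 0.33 (adjusted p = 0.39), and ATF1, a CREB relative, the lowest, -0.37 (adjusted p = 0.32). MAP kinase cascade genes had 24 of 29 listed, with medians of 0.077 with siPCF11 and 0.097 with siScram. Of these 0 of 22 passed, against 5.49% of all genes. MAP2K7, a kinase that activates JNK, was highest with a mean of 0.53 (adjusted p = 0.097), and ARAF was lowest with -0.38 (adjusted p = 0.31).

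The MYC and MAX network had 14 of 15 genes listed, with medians of 0.21 with siPCF11 and 0.16 with siScram. In limma 0 of 13 passed, against 5.49% of all genes. ZBTB17, which recruits MYC to repressed promoters, had the highest mean, 0.39 (adjusted p = 0.28), and MXD1, an antagonist of MYC, the lowest, -0.26 (adjusted p = 0.53). Proteins that bind the AU-rich elements of unstable mRNAs had 8 of 8 genes listed, with medians of 0.16 with siPCF11 and -0.15 with siScram. Of these 1 of 7 passed in limma, against 5.49% of all genes. It was KHSRP, a decay-promoting protein, with a mean of 0.76 (95% interval 0.37 to 1.15, adjusted p = 0.0060). ZFP36L1 had the lowest mean, -0.30 (adjusted p = 0.46). KHSRP, on chromosome 19, had 1.11 with siPCF11 and 0.42 with siScram in the authors' deposited tables, and passed after window centring too (adjusted p = 0.016).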

How the data were processed

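The authors deposited 2 tables, 1 of short and 1 of long genes, whose titles give the values as log2 ratios with WT on top, split by siRNA and by m6Am class. The submitters' processing notes list STAR 2.7.10a, HTSeq 2.0.1 and DESeq2 1.30.1, along with hg38, and assign no role to them. How libraries were scaled, whether ratios were shrunk, any filter and the length limit were not given in the sources used here, and the read depth is unknown. Of 8 libraries, 4 lie behind the ratios, and the 4 rescue libraries were not analysed here.

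Symbols were found for 8792 of the 8801 gene IDs, and RefSeq positions on GRCh38 for 8725. A mean of the 2 ratios was tested in limma 3.58.1 (R 4.3.3; intercept only, two-sided, Benjamini-Hochberg over 7591 genes, 1 residual degree of freedom per gene). The 2 ratios stand in for replicates, so any real effect of the siRNA enters the error, and limma used 1 residual SD, 0.28, for all genes. The p-values cover the spread between these library pairs pooled over all genes, not the spread of the single gene and not other cultures. The fit was also run on simulated data with 1 SD for all genes and equal shifts in both ratios, as the fit itself assumes. That run checks the code and cannot tell whether the real ratios meet these assumptions. Windows of 10 Mb held at least 15 other genes, otherwise the chromosome was used.

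All members were named, and in each other list its highest and lowest gene by mean, the genes limma called, and the nearest listed gene on either side of each member. The members and lists were chosen with earlier results of these data known. Sequences are from RefSeq.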

Additional observations from a re-analysis of the deposited data

Results flagged for a closer look

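MYC had ratios of opposite sign with the 2 siRNAs, -0.28 with siPCF11 and 0.32 with siScram in the authors' deposited tables. Its siPCF11 minus siScram difference was -0.61, and -0.56 after the median of the other genes in its 10 Mb window was taken off each ratio. With 1 library pair per siRNA this difference was not tested.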

How the results depend on the processing

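The labels give no replicate numbers, so no replicate block was fitted, and the only pairing is that of WT with Pcif1-KO within each siRNA, which the limma test uses. Of 127 recomputed values, 119 stayed close. For a ratio this meant within 1 residual SD (0.28) of its value as deposited, and for a count within 1.5 times. A limma mean had to keep its sign and its side of the threshold, with 1 exception for MYC given below. Many of these values could not have come out otherwise. The largest median taken off any member was 0.21, less than 1 residual SD, so no single ratio could move. Every member had both ratios, so keeping only such genes could change no count. A mean without 1 pair is the ratio of the other pair. Members at least 0.5 from 0 numbered 2 with siPCF11 as deposited, 3 after chromosome centring, where IER2 was at -0.53, 1 after window centring, where JUN was at -0.45, 6 at a threshold of 0.3 and 0 at a threshold of 1. With siScram they numbered 1, and 3 at 0.3 and 0 at 1. After chromosome centring 2 members instead of 1 changed by 0.5 or more with siPCF11. The shares of all genes past 0.3 or 1, or past 0.5 after centring, were not computed. These counts of members therefore cannot be set against all genes. No member passed in limma under any of the 5 fits. The mean of MYC was -0.28 without the siScram pair and 0.32 without the siPCF11 pair, as it is a mean of opposite signs. Both were counted as not close to the mean over both pairs, 0.021, although the second had the same sign. Over all genes limma called 417 as deposited, 406 after centring on all genes, 324 after chromosome centring, 224 after window centring and 428 with robust settings. The cause was not tested. With 2 ratios a gene, a mean has a 95% interval of 0.39 to either side.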

Other observations

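Some immediate early and MYC network genes differed widely between the siRNAs, and 20.8% of all 7591 genes with both ratios changed by 0.5 or more. The 3 below were chosen after their values were seen, and all had the higher ratio with siPCF11. Other genes of these kinds changed the other way, such as MYCL by -0.72, CCN2 by -0.63 and SGK1 by -0.60. FOSB, the remaining FOS gene with a value, had 1.08 with siPCF11 and -0.12 with siScram in the authors' deposited tables. Window centring put FOSB at 0.96 with siPCF11 and -0.081 with siScram. CSRNP1, a nuclear protein of the immediate early response, had 0.41 with siPCF11 and -0.66 with siScram in the authors' deposited tables. MXD4, an antagonist of MYC that pairs with MAX, had 0.50 with siPCF11 and -1.003 with siScram in the authors' deposited tables.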
